A study of Mus musculus with 4 samples.

Results

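Foxp3 T cells with CD8 transcripts are droplet barcodes from mouse glioma that carried messenger RNA for a T cell receptor chain partner, for Foxp3 and for the CD8 coreceptor. A barcode was counted when it held at least 200 genes, at most 10% mitochondrial unique molecular identifiers (UMIs, each standing for 1 captured transcript), at least 1 UMI of Cd3d, Cd3e or Cd3g, at least 1 of Foxp3, at least 1 of Cd8a or Cd8b1, and at most 1 of the macrophage and microglia genes C1qa, C1qb and C1qc. The members were thus chosen by measured values, the UMIs of these genes, whose levels below are a description. In the 3 tumor libraries 87 barcodes met the rule, of 330 Foxp3 T cells, 2103 T cells and 7274 barcodes there, and of 8694 barcodes in all 4 libraries. Of the 87 cells, 70 came from the tumors given anti-CTLA-4 plus CD4 depletion, 12 from those given anti-CTLA-4, 5 from those given IgG and 0 from healthy brain.

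Single-cell RNA was sequenced by 10x Genomics 3′ v2 chemistry from immune cells of C57BL/6J mice aged 8 to 12 weeks at injection of glioma-005, a mouse glioblastoma cell line, into the hippocampus. From 7 days after implantation, tumor mice received antibodies by intraperitoneal injection, and tumors were collected at day 35. The antibodies were anti-CTLA-4 (Syrian hamster clone 9H10) with the CD4-depleting antibody GK1.5, anti-CTLA-4 alone, or isotype rat IgG (clone LTF-2). Brains without tumor made the remaining library. Each group was 1 library, a pool of 3 tumors for the tumor groups, in which sorted microglia, CD11b+ myeloid cells, CD3+ T cells and the remaining CD45hi cells were mixed at equal ratios. Shares are therefore given only among T cells. With 1 library per group no test between groups was possible, and every interval below covers counting error only, not the spread between mice.

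The libraries held 21471565 UMIs in 3916 barcodes with depletion, 13428840 in 1874 with anti-CTLA-4, 9952379 in 1484 with IgG and 7950206 in 1420 from healthy brain. The libraries shared 9 barcode sequences between them, none of a Foxp3 T cell with a CD8 UMI. Among the 70 cells of the depletion library, 4 held at least 10 UMIs of myeloid marker genes, and 1 of the 12 with anti-CTLA-4 did. These are called mixed barcodes below.

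Foxp3 is the transcription factor that defines regulatory T cells, which restrain immune responses and in most settings belong to the CD4 lineage. CD8 is the coreceptor of the cytotoxic lineage. It is a pair of the chains encoded by Cd8a and Cd8b1, and the αβ form is typical of conventional cytotoxic T cells. Choice of lineage in the thymus rests on opposed transcription factors, ThPOK (Zbtb7b) on the CD4 side and Runx3 on the CD8 side, and Foxp3-expressing CD8 T cells have been described as a small population in mice and humans.

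With CD4 depletion, Foxp3 T cells more often carried CD8 than in the other tumor libraries, and almost none carried Cd4. A CD8 UMI was present in 70 of 133 Foxp3 T cells (52.6%, Clopper-Pearson 95% interval 43.8 to 61.3%) with depletion, in 12 of 95 (12.6%, 6.70 to 21.0%) after anti-CTLA-4, and in 5 of 102 (4.90%, 1.61 to 11.1%) after IgG. A Cd4 UMI was present in 1 of 133 (0.752%), 41 of 95 (43.2%) and 48 of 102 (47.1%) of the same cells. Foxp3-negative T cells also carried CD8 more often with depletion, in 647 of 1040 (62.2%), against 133 of 452 (29.4%) with anti-CTLA-4 and 69 of 281 (24.6%) with IgG. The CD4-depleting antibody is part of the group, so a loss of cells with CD4 and a gain of cells with CD8 cannot be told apart from shares of T cells.

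**Figure D1:**
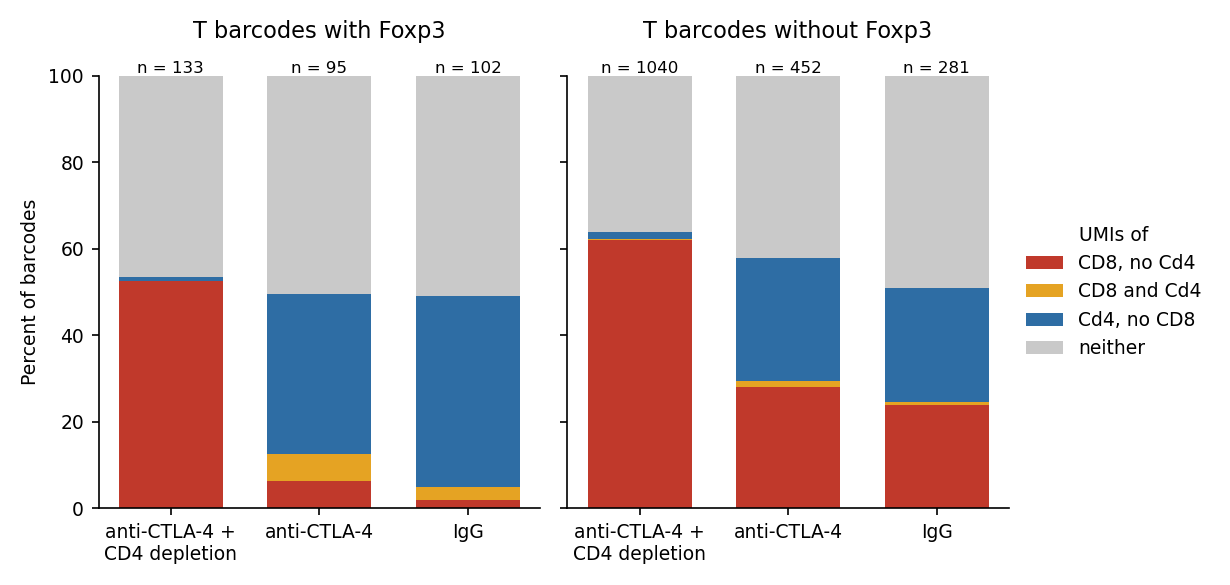
Stacked bars give the percent of T cells (y axis) with CD8 UMIs only, with both CD8 and Cd4 UMIs, with Cd4 UMIs only or with neither, for Foxp3 T cells and for Foxp3-negative T cells in the depletion, anti-CTLA-4 and IgG libraries. In Foxp3 T cells the class with CD8 only covers 52.6% with depletion, 6.32% with anti-CTLA-4 and 1.96% with IgG.

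B cells should lack both genes and were read for the background of free RNA. They were required to hold no UMI of Cd3d, Cd3e or Cd3g, which can leave out barcodes with free T cell RNA. Their shares can therefore understate the background in T cells. A CD8 UMI was found in 3 of 130 B cells (2.31%) with depletion at a median of 2862.5 UMIs per cell, against 4003 in Foxp3 T cells there, and in 1 of 175 (0.571%, median 4837 UMIs against 4845) with anti-CTLA-4. With IgG the count was 0 of 53 (median 4933 UMIs against 3977.5), which allows a share of up to 5.66%. The IgG share of 4.90% in Foxp3 T cells lies under that limit and could not be told apart from background with this number of B cells. No B cell in any library held Foxp3 and CD8 UMIs together. Thinned to 1000 UMIs per cell, 54 barcodes with depletion still held a Foxp3 UMI and 11 of them a CD8 UMI (20.4%), against 2 of 44 (4.55%) with anti-CTLA-4 and 0 of 53 with IgG, which allows up to 5.66%.

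The depletion members mostly carried more than a trace of CD8. Of the 70 cells, 33 held UMIs of both Cd8a and Cd8b1, 13 of Cd8a only and 24 of Cd8b1 only. Counts of CD8 UMIs per cell had a lowest value of 1, a median of 3 and a highest of 27, against a median of 5 and a highest of 58 in the 647 Foxp3-negative CD8 T cells of the same library. In the anti-CTLA-4 library 9 of 12 members rested on a single CD8 UMI and 10 held Cd8b1 only, and in the IgG library all 5 rested on 1 CD8 UMI and 4 held Cd8b1 only. A Cd4 UMI accompanied CD8 in 0 of 70 members with depletion, which allows a share of up to 4.29%, in 6 of 12 with anti-CTLA-4 and in 3 of 5 with IgG. The members of the depletion library thus differ from those of the other tumor libraries in the same transcripts that chose them, which is a description and no test.

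**Figure D2:**
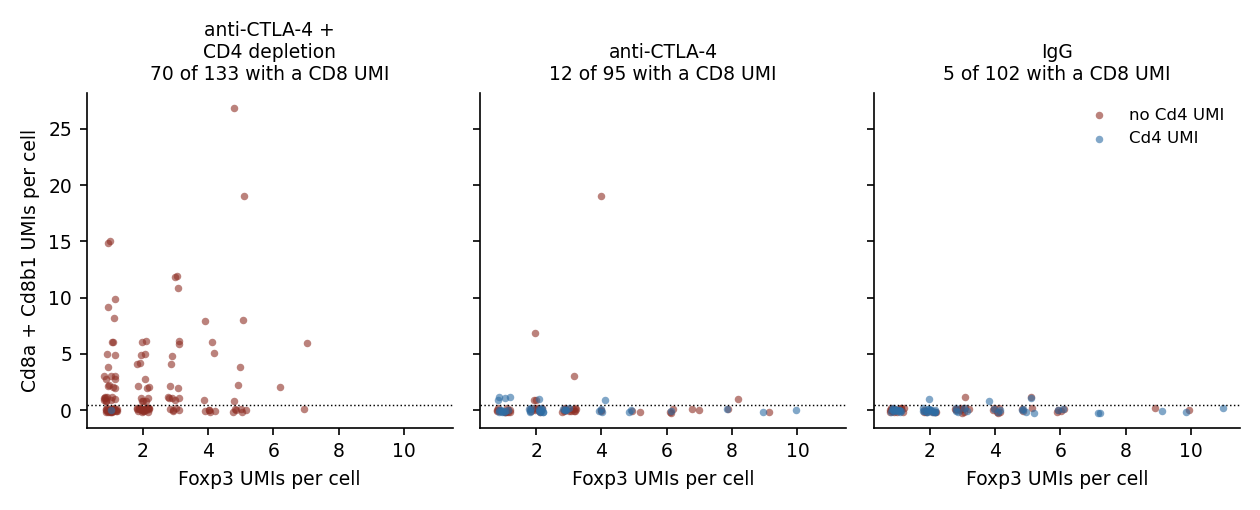
Each point is 1 Foxp3 T cell, with its Foxp3 UMIs on the x axis and its Cd8a plus Cd8b1 UMIs on the y axis (points are spread slightly, blue points also held a Cd4 UMI), in panels for depletion, anti-CTLA-4 and IgG. CD8 counts reach 27 with depletion, while all 5 cells above 0 with IgG stand at 1.

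Foxp3 counts among the 70 cells had a median of 2 and a highest of 7 UMIs, with 29 cells at 1 UMI and 41 at 2 or more. Summed over cells and scaled to counts per 1000000 UMIs (CPM), Foxp3 stood at 448 CPM in these cells, at 576 in the 63 Foxp3 T cells of the library without a CD8 UMI, and in Foxp3 Cd4 T cells (a Cd4 UMI and no CD8 UMI) at 486 with anti-CTLA-4 and 430 with IgG. Cd8a stood at 372 CPM in the members, against 524 in Foxp3-negative CD8 T cells, and Cd8b1 at 506, against 830. Both chains were lower in members. The Cd8b1 to Cd8a ratio of UMIs was 1.36 (1.08 to 1.72) in members, against 1.59 (1.49 to 1.69), with overlapping intervals. In the mm10 assembly (GENCODE vM21 annotation), Cd8b1 lies at chr6:71322788-71337494 beside Cd8a at chr6:71373427-71379173, and Foxp3 at chrX:7573644-7595245.

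The label was checked against genes that the rule did not use. At least 1 UMI of Il2ra, Ctla4 or Ikzf2, all typical of regulatory T cells, was found in 68 of the 70 cells (97.1%, 90.1 to 99.7%), against 286 of 647 Foxp3-negative CD8 T cells (44.2%, 40.3 to 48.1%). All 3 were found in 27 of 70 (38.6%) and in 7 of 647 (1.08%). Median depth was close, at 4551.5 UMIs per member and 4365 per Foxp3-negative CD8 T cell. Cd40lg, typical of CD4 helper cells, had 0 UMIs in the members, as did Gzmk, a granzyme typical of memory CD8 T cells. Cd40lg also had 0 UMIs in the members of the other tumor libraries. Zbtb7b, the other CD4 marker that the rule did not use, was higher in the depletion members. It stood at 36.4 CPM there, in 13 of 70 cells, against 7.39 in Foxp3-negative CD8 T cells. The label thus held by the listed regulatory markers. The 3 CD8 markers that the rule did not use, Gzmk, Nkg7 and Ccl5, were all lower in members than in Foxp3-negative CD8 T cells, and Ccl5 was present in 34 of 70 members and 34 of 63 Foxp3 T cells without a CD8 UMI, so the CD8 part of the label rests on the coreceptor transcripts that chose the cells.

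Within the depletion library, members set against Foxp3-negative CD8 T cells had high levels of regulatory T cell genes and low levels of most genes of the cytotoxicity and chemokine lists. Gzmb, which encodes granzyme B, a main protease of cytotoxic granules, was higher in members. Genes were called by size, which asked for 30 or more UMIs over both groups, detection in 10% or more of the higher group's cells and a CPM ratio of 2 or more. By this rule 492 of 7251 measured genes were higher (6.79%) and 230 were lower (3.17%) in members. Ribosomal transcripts made up 26.2% of UMIs in members, against 36.6% in Foxp3-negative CD8 T cells. When CPM was computed without ribosomal and mitochondrial genes, ratios moved by -0.21 on the log2 scale and the calls became 297 higher and 353 lower. With median-of-ratios scaling, which moved ratios by -0.09, they became 398 and 274.

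Of the 23 measured genes of the regulatory T core list, 18 were at least 1.5-fold higher in members and 4 lower, with a median log2 ratio of 1.53. The lower genes were Lag3, Satb1, Rgs16 and Ncf1, each with at most 5 UMIs in members. Over all 8235 genes measured for lists, 22.1% were higher and 19.6% lower by that fold, with a median log2 ratio of 0.07. Il2ra, the high-affinity chain of the interleukin 2 receptor, stood at 333 CPM in members and at 16.0 in Foxp3-negative CD8 T cells, 20.8-fold higher (95% interval 14.9 to 29.4). Tnfrsf9, the costimulatory receptor 4-1BB, stood at 453 against 60.9 CPM, 7.44-fold higher. Ctla4, an inhibitory receptor and the target of the antibody that both groups of cells had met, stood at 506 against 89.0 CPM, 5.69-fold higher (4.70 to 6.88). Itgae, the αE integrin CD103 that holds lymphocytes in epithelium, stood at 338 against 52.3 CPM, 6.47-fold higher.

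The regulatory marker Ikzf2 (Helios) stood at 761 CPM in members, against 174, and Tnfrsf18 (GITR) at 629, against 197. Izumo1r, the folate receptor 4 found on regulatory T cells, was picked out after its values were seen and stood at 243 CPM in members, against 34.8. Summed over the core list, each cell's level per 10000 UMIs had a lowest value of 11.1, a median of 62.0 and a highest of 142 in members. The median was 15.4 in Foxp3-negative CD8 T cells, of which 17 of 647 reached the members' median, while 2 of 70 members fell at or below that of the Foxp3-negative cells. The groups thus overlapped little on this sum.

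Of the regulatory T effector and tissue list, 9 of 19 measured genes were higher by 1.5-fold and 1 lower, with a median log2 ratio of 0.51. Il1rl1, the interleukin 33 receptor ST2 of tissue regulatory T cells, stood at 92.3 CPM in members and 7.69 in Foxp3-negative CD8 T cells, 12.0-fold higher. Klrg1, an inhibitory lectin of terminal effector cells, was 6.26-fold higher, but in 11 of 70 cells and with 25.8% of its UMIs in 1 cell. Maf, a transcription factor of effector regulatory T cells, was 4.35-fold higher, and Fgl2, a secreted suppressive protein, 4.08-fold. Socs2, an inhibitor of cytokine signalling that belongs to the core list, was 11.5-fold higher. Among the genes with the largest ratios outside these 2 lists, Ncmap was 22.7-fold and Neb 17.0-fold higher. S100a9 and S100a8 were 10.3-fold and 9.38-fold higher, with 98.3% and 98.8% of the members' UMIs in 1 cell.

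Of the cytotoxicity list, 2 of 19 measured genes were higher by 1.5-fold and 14 lower, with a median log2 ratio of -1.63, or -1.20 with the 5 genes at 0 UMIs in members set at their bound. The higher genes were Gzmb and Srgn, which encodes the granule proteoglycan serglycin and was 1.61-fold higher. By either other scaling 1 gene of the list was higher. Gzmb (chr14:56258838-56262260) stood at 1723 CPM in members and at 250 in Foxp3-negative CD8 T cells, 6.89-fold higher (6.19 to 7.66). It was present in 58 of 70 members (82.9%, 72.0 to 90.8%), against 24.9% of Foxp3-negative CD8 T cells. Klrd1, the CD94 chain of natural killer receptors, had 1 UMI in members and 1259 in Foxp3-negative CD8 T cells, 139-fold lower by CPM (24.8 to 5476). Gzmk had 0 against 268 UMIs, at least 9.83-fold lower when members are set at the floor of 3 UMIs over the group. Prf1, the pore-forming perforin, and Gzma were each found in 3 of 70 members, and Ifng in 0, which allows a share of up to 4.29%. Nkg7, a granule membrane protein, was lower at 596 against 1296 CPM and yet present in 43 of 70 members.

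All 6 measured genes of the T cell chemokine and cytokine list were at least 1.5-fold lower in members, with a median log2 ratio of -2.62. Ccl5 stood at 898 CPM in members and 6357 in Foxp3-negative CD8 T cells, 7.08-fold lower (6.34 to 7.93). Xcl1, the chemokine that attracts cross-presenting dendritic cells, had 0 UMIs in members and 963 in Foxp3-negative CD8 T cells, at least 35.3-fold lower. Ccl4 had 2 against 568 UMIs, 31.2-fold lower (8.61 to 259). Ccl3, Tnf and Il2, the remaining genes of the list, had 1, 2 and 1 UMIs in members, so that of the 6 genes Ccl5 alone stood above 3 UMIs there.

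Of the checkpoint and exhaustion list, 3 of 16 measured genes were higher and 10 lower, with a median log2 ratio of -0.66. Lag3, an inhibitory receptor for MHC class II (chr6:124904361-124911705), had 0 UMIs in members and 213 in Foxp3-negative CD8 T cells, at least 7.81-fold lower. Pdcd1, encoding PD-1, stood at 50.4 CPM in members, against 177. Cd160 had 1 UMI in members, against 195. Ctla4, Havcr2 and Entpd1 were the higher genes of the list. Of the naive and recirculating list 2 of 14 were higher and 7 lower, with a median log2 ratio of -0.74, or -0.38 with the 2 genes at 0 UMIs in members set at their bound. Tcf7, the stem-like memory transcription factor TCF-1, had 2 UMIs in members and 521 in Foxp3-negative CD8 T cells, 28.7-fold lower (7.89 to 237).

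Of the 4 measured genes of the CD4 helper side, 1 was higher by 1.5-fold and 2 lower. Tox, a factor of CD4 lineage development and of exhaustion, stood at 30.8 CPM in members, against 84.0, 2.73-fold lower, Cd40lg had 0 UMIs, against 80, and Gata3, the type 2 helper factor, stood at 115, against 83.1 CPM, a ratio of 1.38. Zbtb7b stood at 36.4 CPM in members and 7.39 in Foxp3-negative CD8 T cells, 4.92-fold higher (2.30 to 10.1), and was present in 13 of 70 members. Runx3 stood at 171 against 335 CPM and was present in 36 of 70, a ratio of 0.51 that the size rule did not call, with a log2 ratio of -0.95 that came to -1.05 by median-of-ratios scaling and -1.19 without ribosomal and mitochondrial genes. Eomes and Tbx21, transcription factors of effector CD8 T cells, had 0 UMIs in members, against 86 and 75 in Foxp3-negative CD8 T cells, at least 3.15-fold and 2.75-fold lower. Satb1, a chromatin organizer, was 7.51-fold lower at 11.2 against 84.0 CPM.

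Interferon response genes were higher in members, 14 of 18 by at least 1.5-fold and none lower, with a median log2 ratio of 0.91. When CPM was computed without ribosomal and mitochondrial genes, 12 of 18 were higher. Igtp, an interferon-induced GTPase, stood at 297 CPM in members, against 95.1, and Gbp2, another, at 182, against 58.8. Compared with Foxp3 T cells without a CD8 UMI, 1 of the 18 genes was higher and 1 lower, with a median log2 ratio of -0.09. Compared with Foxp3 Cd4 T cells, 4 were higher and 0 lower with IgG, and 2 higher and 1 lower with anti-CTLA-4. In the tissue residence list 3 of 9 genes were higher than in Foxp3-negative CD8 T cells and 3 lower. Itgae is among the higher ones, and Cxcr6, a chemokine receptor of resident T cells, stood at 47.6 CPM in members, against 300.4 in Foxp3-negative CD8 T cells, 6.32-fold lower. Of the T cell receptor signalling list 3 of 12 were higher and none lower, close to the 22.1% of all genes that were higher, and without ribosomal and mitochondrial genes 1 was higher and 1 lower. Of the proliferation list 2 of 18 were higher and 3 lower, and of the dissociation list 3 of 10 were higher and 2 lower, close to the shares over all genes.

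**Figure D3:**
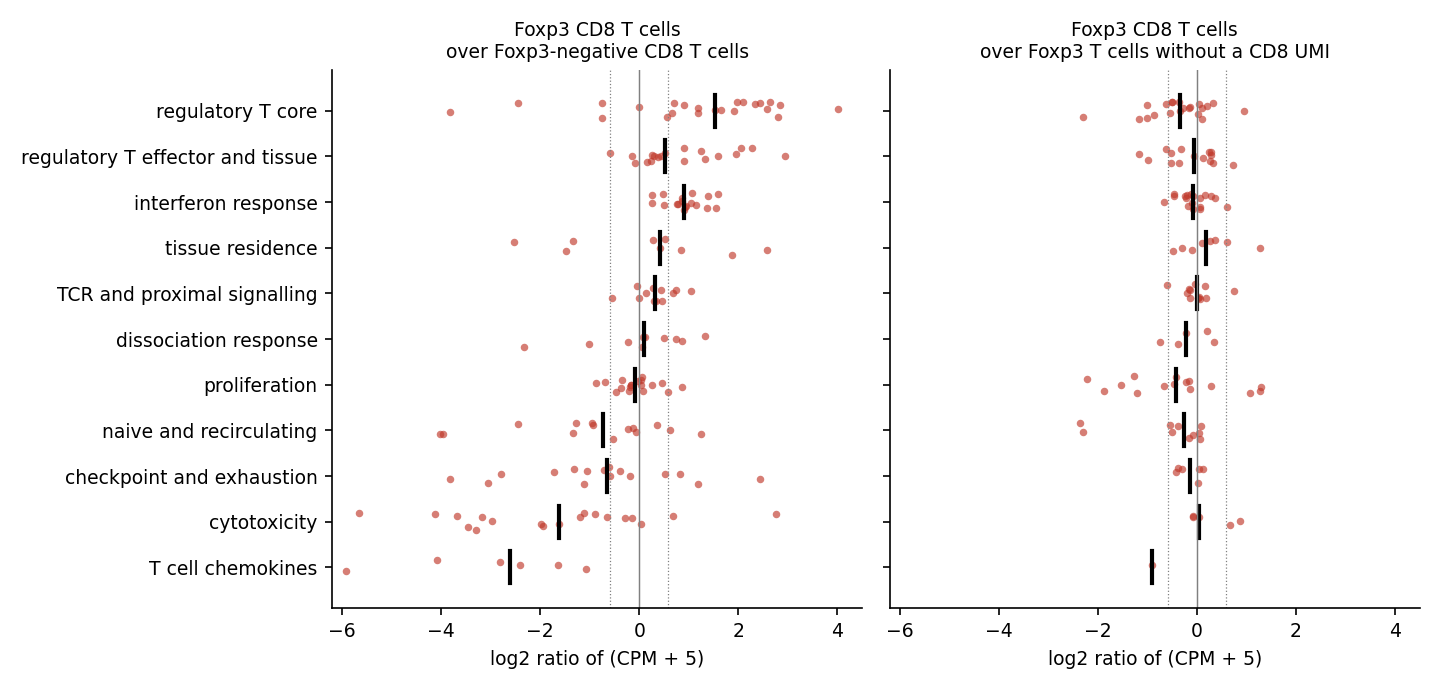
Each point is the log2 ratio of CPM plus 5 of 1 list gene, members over Foxp3-negative CD8 T cells (left) and members over Foxp3 T cells without a CD8 UMI (right), both in the depletion library, with a black bar at the list median and dotted lines at 1.5-fold. The regulatory T core median is 1.53 on the left and -0.34 on the right, and the cytotoxicity median is -1.63 on the left.

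Levels were read by Foxp3 counts, and some genes followed them in order while others did not. Gzmb stood at 1997 CPM in the 41 members with 2 or more Foxp3 UMIs, at 1264 in the 29 with 1 and at 250 in the 647 cells with 0. Il2ra stood at 393, 232 and 16.0 CPM in the same order, and Ikzf2 at 831, 643 and 174. Ccl5 ran the other way, at 617, 1369 and 6357 CPM. The cells with 1 Foxp3 UMI, just inside the rule, lay between the others for these 4 genes. Ctla4 stood at 492, 531 and 89.0 CPM in the same order and Tnfrsf9 at 420.0, 509 and 60.9, so neither was higher in the cells with more Foxp3, and Itgae was level at 339.6 and 337 CPM in both classes of members. These are values on either side of the rule's threshold and are a description.

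Within the depletion library, members and Foxp3 T cells without a CD8 UMI were close to each other in Gzmb, Ctla4 and Il2ra. By the size rule 72 of 2652 measured genes were higher in members (2.71%) and 44 lower (1.66%). The measured genes and the calls depend on group size, here 63 reference cells against 647 above. These counts therefore cannot be set directly against those with Foxp3-negative CD8 T cells. Gzmb stood at 1723 CPM in members and 1818 in Foxp3 T cells without a CD8 UMI, a ratio of 0.95, and was present in 82.9% and 65.1% of cells at median depths of 4551.5 and 3457 UMIs. Thinned to 1000 UMIs, the same shares were 66.0% and 59.3%. Ctla4 stood at 506 and 500.5 CPM, a ratio of 1.01, and Il2ra at 333 and 421 CPM, 0.79. A cell of this depth can hold CD8 messenger RNA without a captured UMI, so the split between these groups is by captured UMIs and not by expression.

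Some regulatory genes were lower in members than in Foxp3 T cells without a CD8 UMI. Of the core list 6 of 21 measured genes were at least 1.5-fold lower and 1 higher, with a median log2 ratio of -0.34, against 10.2% lower and 12.3% higher of all 3645 genes measured. Tnfrsf4, the costimulatory receptor OX40, stood at 453 CPM in members, against 909, a ratio of 0.50. Ikzf2 stood at 761, against 1385, and Ikzf4, the Foxp3 partner Eos, was 2.35-fold lower. Il1rl1 stood at 92.3 CPM in members, against 188, Klrg1 at 86.7, against 200.2, and Satb1 at 11.2, against 75.1. Bmyc, a Myc family gene with the largest call on the lower side, stood at 47.6 CPM, against 254, 5.35-fold lower (3.08 to 9.77).

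On the cytotoxic side, Runx3 stood at 171 CPM in members and 95.9 in Foxp3 T cells without a CD8 UMI, 1.78-fold higher (1.09 to 3.01), and Nkg7 at 596 and 325, 1.83-fold. Neither reached the ratio of 2. Ccl5 was lower in members, at 898 against 1681 CPM, a ratio of 0.53. Zbtb7b stood at 36.4 and 20.9 CPM on few UMIs. In this comparison S100a8, S100a9, Wfdc17, Ifitm1 and H2-Aa, among the 8 largest higher calls, are myeloid genes or had much of their UMIs in 1 barcode. Plac8, also among the 8, was the largest higher call without mixed barcodes. It then stood at 294 against 29.7 CPM, 9.89-fold higher (4.62 to 25.3), in 19.7% of the remaining members. A single member held 98.6% of the S100a8 and S100a9 UMIs. Without mixed barcodes the calls were 60 higher and 44 lower.

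Levels were also read by CD8 counts, with cells at 1 CD8 UMI just inside the rule and those at 0 just outside. Gzmb stood at 1870 CPM in the 31 cells with 4 or more CD8 UMIs, 2190 in the 17 with 2 or 3, 986 in the 22 with 1 and 1818 in the 63 with 0, so it followed no order. Ikzf2 stood at 679, 931, 773 and 1385 CPM and Ccl5 at 830, 1125, 829 and 1681, each lower in the 3 classes with CD8 than in the class without. Nkg7 stood at 598, 556 and 628 CPM with CD8, against 325 without. Median depth was 5075, 4147, 3630.5 and 3457 UMIs in the same order, and its part in these values was not tested.

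Set against Foxp3 Cd4 T cells of the IgG library, the depletion members had similar levels of Il2ra and Ctla4 and a higher level of Gzmb. Il2ra stood at 333 CPM in members and 318 in the 45 Foxp3 Cd4 T cells, a ratio of 1.05, and Ctla4 at 506 and 511, 0.99. Gzmb stood at 1723 against 105 CPM, 16.4-fold higher (11.7 to 23.8). Between the same libraries Gzmb in Foxp3-negative CD8 T cells stood at 250 against 195 CPM, a ratio of 1.28, and Foxp3 T cells without a CD8 UMI with depletion stood 17.3-fold above the IgG Foxp3 Cd4 T cells. The size of the Gzmb difference was thus shared by Foxp3 T cells of the depletion library with and without CD8 UMIs. Treatment, library and cell class differ together in this comparison and cannot be told apart.

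By the size rule 115 of 3062 genes were higher in members than in IgG Foxp3 Cd4 T cells (3.76%) and 207 lower (6.76%). Itgae stood at 338 CPM in members, against 99.1, 3.41-fold higher (2.31 to 5.18). S100a6 and S100a4, calcium-binding proteins of effector and migrating cells, stood at 4627 and 2224 CPM in members, against 1472 and 778. Nkg7 was 2.18-fold higher and Ifit3, an interferon-induced gene, 3.04-fold. Cd7, a T cell surface glycoprotein, stood at 101 CPM, against 15.0, with 30.6% of its UMIs in 1 member. Of the myeloid genes among the largest, S100a8, S100a9 and Lyz2 had 98.8%, 98.3% and 90.2% of their UMIs in 1 member. Wfdc17 kept 6 of its 117 UMIs without mixed barcodes, and Ly6c2, found in 10 of 70 members, kept 29 of 45.

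On the lower side, all 18 measured genes of the proliferation list were lower by 1.5-fold in members, with a median log2 ratio of -1.94, where 20.6% of all 4242 measured genes were lower and 14.7% higher. Top2a, the mitotic DNA topoisomerase, stood at 89.5 CPM in members, against 565, with 81.3% of the members' UMIs and 36.7% of those of Foxp3 Cd4 T cells in 1 cell each. Tuba1b, a tubulin, stood at 104, against 688, with 64.9% and 23.6% in 1 cell each. Cells without a Mki67 or Top2a UMI made up 57 of the 70 members and 31 of the 45 Foxp3 Cd4 T cells, and without the others 99 genes were lower, against 207. Of the regulatory T core list 1 of 22 genes was higher and 6 lower, with a median log2 ratio of -0.18. Tnfrsf4 stood at 453 CPM in members, against 949, and Ikzf2 at 761, against 1463. Pdcd1 stood at 50.4 CPM, against 120.2, and Lag3 had 0 UMIs in members and 38 in Foxp3 Cd4 T cells, at least 13.6-fold lower.

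Against the 35 Foxp3 Cd4 T cells of the anti-CTLA-4 library, which share the checkpoint antibody, 129 of 2562 genes were higher in members (5.04%) and 97 lower (3.79%). The same 70 members enter both comparisons across libraries, so the lists of genes are not independent. Gzmb stood at 1723 CPM in members and 659 in Foxp3 Cd4 T cells, 2.62-fold higher (2.18 to 3.16), whereas in Foxp3-negative CD8 T cells it stood at 250 with depletion and 666 with anti-CTLA-4, a ratio of 0.38. Klf2, a transcription factor of lymphocyte recirculation, stood at 252 CPM in members, against 56.0, 4.49-fold higher, and it was 2.45-fold higher in Foxp3-negative CD8 T cells between the same libraries. Itgae was 2.90-fold higher in members.

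Of the regulatory T core list 2 of 22 genes were higher and 12 lower in members, with a median log2 ratio of -0.62, where 15.9% of 3620 measured genes were higher and 16.3% lower. Tnfrsf4 stood at 453 CPM, against 1457, 3.22-fold lower (2.65 to 3.91). Ikzf2 stood at 761, against 1798, and Maf at 341, against 887. Itgb8, the integrin chain with which regulatory T cells activate TGF-β, stood at 8.39 CPM on 3 UMIs, against 149, 17.8-fold lower (5.57 to 90.9). Rbpj, the transcription factor of Notch signalling, stood at 44.8, against 430 CPM. Penk, which encodes proenkephalin, had 2 UMIs in members and 108 in Foxp3 Cd4 T cells, of which 7 of 35 carried it. Il2ra and Ctla4 stood at ratios of 0.73 and 0.96. The proliferation list, lower in all 18 measured genes against IgG, had 2 of 12 measured genes higher and 2 lower here. Its median log2 ratio was 0.19.

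Lag3 had 0 UMIs in members and 71 in Foxp3 Cd4 T cells with anti-CTLA-4 (332 CPM), at least 39.5-fold lower. In Foxp3 T cells without a CD8 UMI it had 6 UMIs with depletion, and in Foxp3-negative CD8 T cells it was also lower with depletion than with anti-CTLA-4, at a ratio of 0.31. Low Lag3 was thus seen in all 3 T cell classes of the depletion library. In the 12 members of the anti-CTLA-4 library Lag3 stood at 131 CPM.

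**Figure D4:**
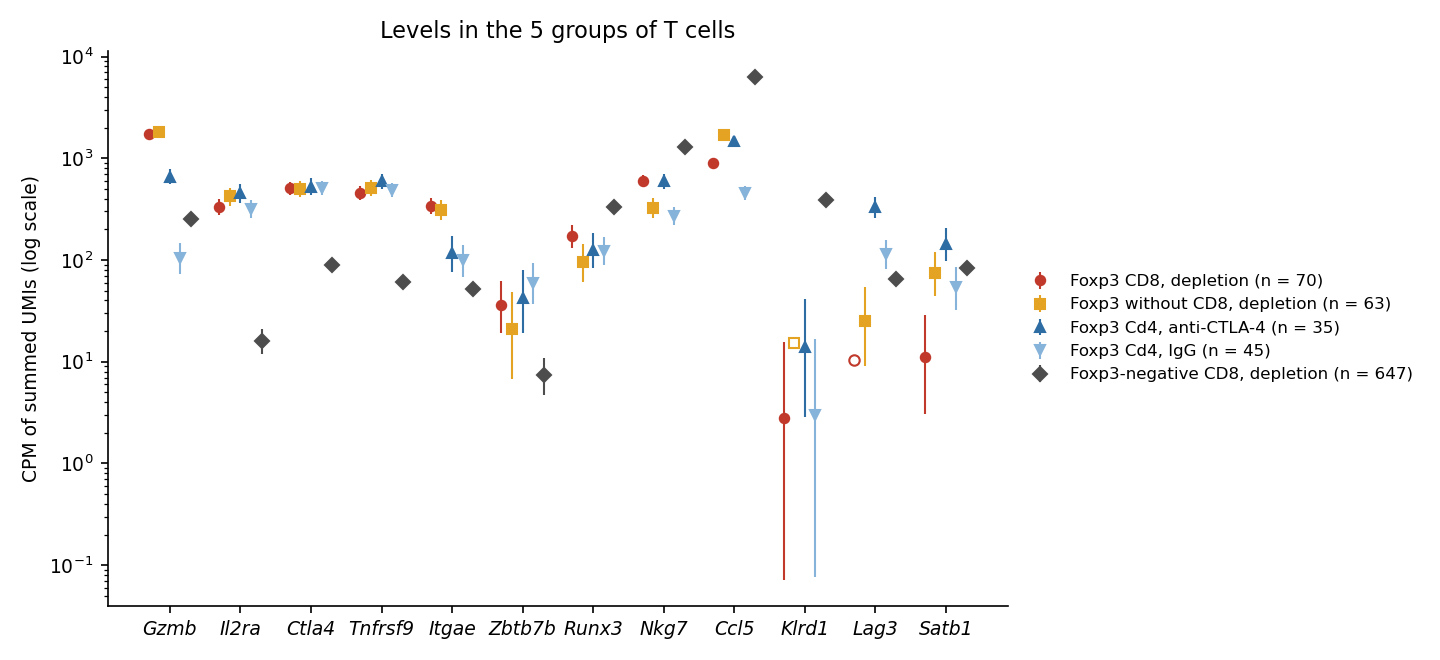
CPM (log axis) of 12 genes with exact Poisson 95% intervals, in members and Foxp3 T cells without a CD8 UMI of the depletion library, in Foxp3 Cd4 T cells with anti-CTLA-4 and with IgG, and in Foxp3-negative CD8 T cells of the depletion library. An open marker is the upper bound where 0 UMIs were counted. Gzmb is at 1723 and 1818 CPM in the depletion library's Foxp3 T cells with and without a CD8 UMI, and Lag3 has 0 UMIs in members.

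The few members outside the depletion library had other levels. Gzmb stood at 928 CPM in the 12 members with anti-CTLA-4, in 6 of 12 cells, and had 0 UMIs in the 5 with IgG. Tnfrsf4 stood at 1380 CPM with anti-CTLA-4 and 1254 with IgG, against 453 with depletion. Il2ra stood at 262 and 218 CPM and Ctla4 at 333 and 382 in these libraries, with Poisson intervals that overlap those of the depletion members for both genes. Ccl5 stood at 8004 CPM with anti-CTLA-4 and at 1556 without its mixed barcode. The per-cell sum of the core list had medians of 88.5 with anti-CTLA-4 and 45.5 with IgG.

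**Figure D5:**
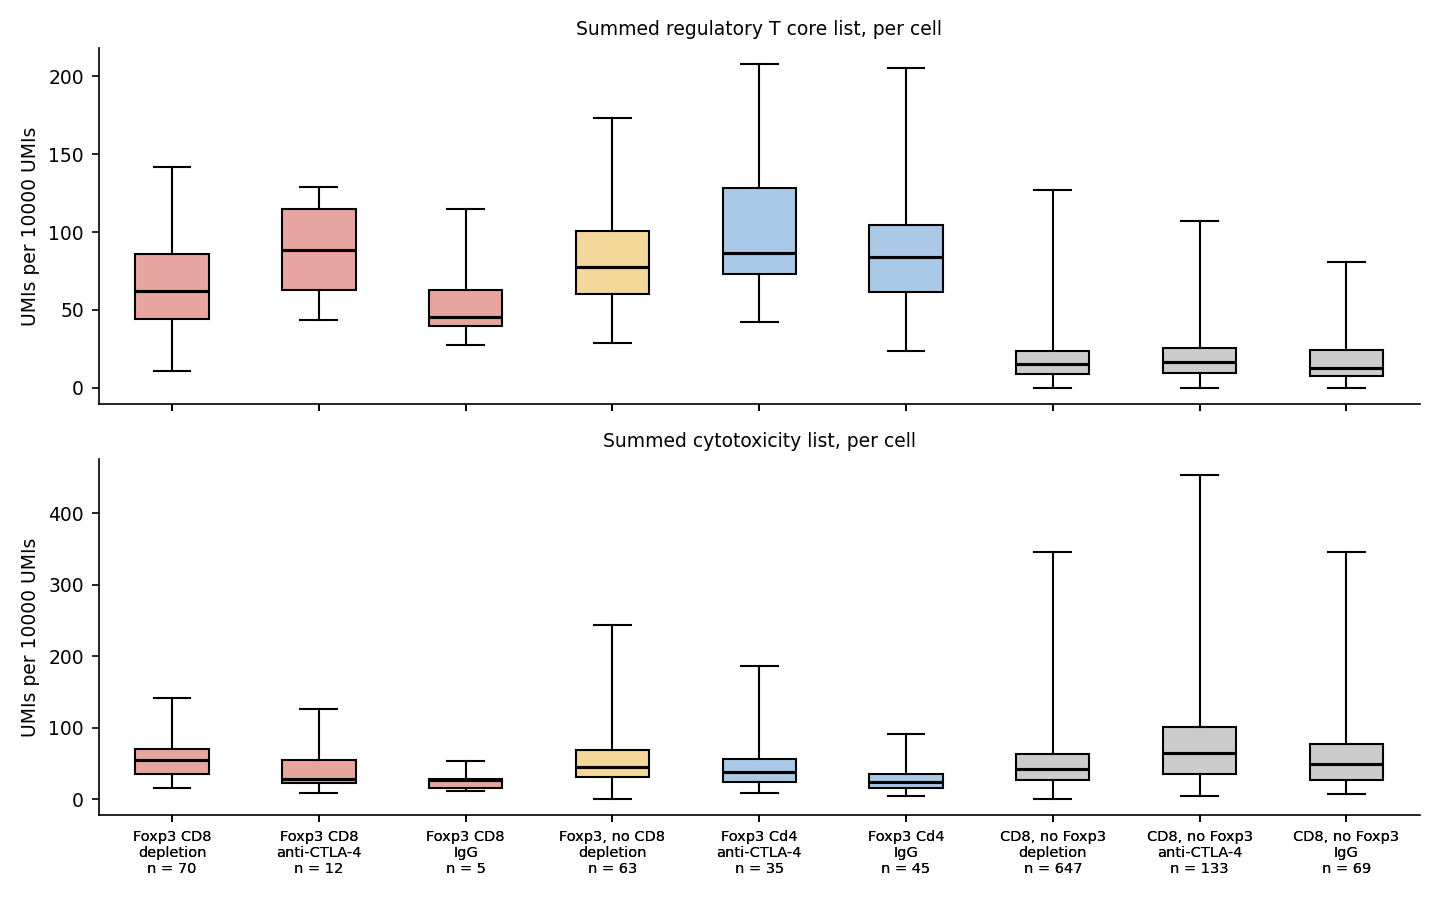
Boxes give the quartiles and whiskers the lowest and highest summed UMIs per 10000 UMIs of the regulatory T core list (top) and the cytotoxicity list (bottom) per cell, in 9 groups of T cells. The core list has a median of 62.0 in depletion members, 15.4 in Foxp3-negative CD8 T cells and 77.7 in Foxp3 T cells without a CD8 UMI of that library.

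The cytotoxicity sum per cell, in which Gzmb weighs heavily, had a median of 54.2 per 10000 UMIs in members, 42.7 in Foxp3-negative CD8 T cells and 45.0 in Foxp3 T cells without a CD8 UMI. Within the 70 members, Gzmb was found together with Ikzf2 in 46, with Itgae in 41, with Il2ra in 38 and with Ccl5 in 30. Runx3 and Ikzf2 shared 30 cells. A Mki67 or Top2a UMI, a sign of cycling, was present in 13 members, and all 13 also held Gzmb. Il10, an inhibitory cytokine, had 0 UMIs in the 70 cells.

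A gene signature was read from the other libraries, which share no cell with the depletion members. In the anti-CTLA-4 library, 408 genes were higher in Foxp3 Cd4 T cells than in Foxp3-negative CD8 T cells by the size rule, and 407 of them were measured in the depletion library. There 217 (53.3%) were at least 1.5-fold higher in members than in Foxp3-negative CD8 T cells and 25 (6.14%) lower, against 22.1% and 19.6% over all genes. Of the 312 measured genes on the CD8 side, 29 were higher and 135 (43.3%) lower. With the signature read from the IgG library, 185 of 442 genes on the Foxp3 side (41.9%) were higher and 22 lower in members, and 55 of 97 on the CD8 side (56.7%) were lower. Foxp3 T cells without a CD8 UMI gave 215 of 406 and 200 of 442 genes higher on the Foxp3 side. On that side 26 and 45 were lower. On the CD8 side 151 of 312 and 59 of 97 were lower, and 25 and 3 higher. Over all genes of this comparison 23.6% were higher and 23.7% lower. Both kinds of Foxp3 T cell in the depletion library therefore lay on the Foxp3 Cd4 side of these genes relative to Foxp3-negative CD8 T cells, and all of these comparisons share the depletion library's Foxp3-negative cells.

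Markers of other cell types were counted in the members. Neutrophil markers summed to 4322 CPM in members, against 407 in Foxp3-negative CD8 T cells and 58.4 in Foxp3 T cells without a CD8 UMI, with all 5 markers detected, and to 65.6, 45.1 and 55.2 without mixed barcodes. Macrophage and monocyte markers summed to 1166, 1195 and 722 CPM in the same order, with Ms4a7 and Adgre1 at 0 in members, and to 591, 626 and 522 without mixed barcodes. Dendritic cell markers summed to 417, 297 and 70.9 CPM, and to 68.8, 52.5 and 72.1 without mixed barcodes. Natural killer markers summed to 207 CPM in members and 610.0 in Foxp3-negative CD8 T cells, and to 59.4 and 475 without mixed barcodes, with Ncr1, Klrb1c, Klra4, Klra7 and Eomes at 0 in members. B cell markers summed to 78.3 and 44.6 CPM, with Ms4a1 and Ly6d among those at 0 in members. Without mixed barcodes 492 genes were higher and 236 lower in members than in Foxp3-negative CD8 T cells, of which 420 and 190 were among the calls above. The part of other cell types in the remaining differences was not tested.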

How the data were processed

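The authors deposited raw UMI counts per gene and barcode, made with Cell Ranger 3.1.0 per the file headers, on mm10 per the submitters' processing notes; other settings are not given in the sources used here. The 4 tables held 27998 genes. Members and gene lists were chosen with earlier results of these data known. For each group the UMIs of a gene were summed and divided by the group's total UMIs (CPM). Ratios carry exact conditional-binomial 95% intervals, levels exact Poisson intervals and shares exact Clopper-Pearson intervals, all for counting error only. PCR copies are collapsed by the UMIs. Bounds on ratios, given as "at least", use a floor of 3 UMIs over the group and leave out counting error in the other group. They are not the ends of the exact intervals, which reach lower, for Xcl1 to 28.7-fold against the bound of 35.3-fold. A share of 0 carries the limit of 3 cells in the number counted. Lists used genes with at least 20 UMIs in both groups together, and log2 ratios used CPM plus 5. Genes were named from the 8 largest calls in each direction without ribosomal, mitochondrial, T cell receptor, immunoglobulin, unnamed, sex-linked and selecting genes. Genes were also named from the 2 to 4 largest ratios per list and from 10 fixed genes. Not every such gene is printed, and Iigp1 (higher), Dapl1 and Klrc1 (lower) against Foxp3-negative CD8 T cells are among those left out. Any other gene named, such as Ikzf2, Tnfrsf18, Izumo1r, Prf1, Srgn and Il10, was named after its values were seen. B cells were barcodes with at least 2 UMIs of Cd79a and Cd79b, no UMI of Cd3d, Cd3e or Cd3g and at most 1 of the C1q genes. The same limits on genes and mitochondrial UMIs applied to them. Doublets were left in. Scrublet (expected rate 0.05) removal was an alternative. Its automatic threshold called 2 of 3875 barcodes with depletion and 8 of 1853 with anti-CTLA-4, so the top 5% of scores were removed there (169 and 90), with 5 and 1 members among them. Median depth was 4455 UMIs per barcode with depletion, 5733 with anti-CTLA-4, 5862 with IgG and 5066.5 in healthy brain. An alternative that rests on a gene not reported here was left out. The comparison code was tested on simulated data. Analysis used Python 3.11.15, scipy 1.17.1 and scanpy 1.11.5.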

Additional observations from a re-analysis of the deposited data

Results flagged for a closer look

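Ccr7, the receptor that guides naive and central memory T cells to lymph nodes, had ratios of opposite sign in 2 libraries, with different Foxp3 cells compared. In the depletion library it stood at 14.0 CPM in Foxp3 T cells with a CD8 UMI and 43.1 in Foxp3-negative CD8 T cells, a log2 ratio of -1.34, and in the anti-CTLA-4 library at 107 CPM in Foxp3 Cd4 T cells and 32.1 in Foxp3-negative CD8 T cells, a log2 ratio of 1.60. Cxcl10, an interferon-induced chemokine, was compared in the same groups. It stood at 19.6 against 82.5 CPM in the depletion library, a log2 ratio of -1.83, and at 117 against 32.1 CPM in the anti-CTLA-4 library, 1.72. The depletion members held 5 Ccr7 and 7 Cxcl10 UMIs. Library and class of Foxp3 cell differ together here and cannot be told apart. With 1 library per group these differences were not tested.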

How the results depend on the processing

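No paired analysis was possible because each group was 1 library and no test was run. In the count of genes higher and lower by the size rule, thinning cells to 1000 UMIs left 208 and 67 against Foxp3-negative CD8 T cells, 35 and 20 against Foxp3 Cd4 T cells with IgG, 35 and 17 against those with anti-CTLA-4, and 11 and 11 against Foxp3 T cells without a CD8 UMI. A ratio of 1.5 gave 1297 and 543, 403 and 531, 357 and 325, and 232 and 219 in the same order of comparisons. At least 20 UMIs with no minimum share gave 1009 lower genes against Foxp3-negative CD8 T cells, and otherwise 216 and 385, 238 and 217, and 177 and 110. CPM without ribosomal and mitochondrial genes gave 297 and 353 against Foxp3-negative CD8 T cells. Cells without a Mki67 or Top2a UMI gave 99 lower genes against IgG, and all Foxp3 T cells in place of those with Cd4 gave 164 lower against anti-CTLA-4.

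The share of Foxp3 T cells with a CD8 UMI came to 20.4% with depletion, 4.55% with anti-CTLA-4 and 0% with IgG after thinning, and to 36.1%, 3.16% and 0% with at least 2 CD8 UMIs. Depletion stayed highest in every alternative run.

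Among values of single genes and lists, 2342 moved little, 309 moved further and 11 changed sign; the cause was not tested. These were Klf3 against IgG when thinned (-0.56); Cdca8, Hist1h2ap and Hist1h1b (0.36 each), Cenpf (1.62) and Cks1b (1.25) without cycling cells; the chemokine list against IgG, which held only Ccl5, with all Foxp3 T cells (-0.41). Lyz2 against anti-CTLA-4 came to -0.093 without high Scrublet scores and -0.12 without mixed barcodes, an alternative chosen after seeing the data, and S100a8 against Foxp3 T cells without a CD8 UMI to -0.21 and -0.23. All are log2 ratios. Depth limits rare transcripts, since 0 UMIs in 70 members leaves up to 4.29% of cells with a UMI.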
